A study of Arabidopsis thaliana with 3 samples.

Results

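The WRKY transcription factors are a large plant family whose members share a DNA-binding domain with the amino acid motif WRKY and a zinc finger. They bind W-box elements in promoters, are known above all from responses to pathogens, salicylic acid, abscisic acid, heat and drought, and also act in development, for example in trichomes, seed coat and roots. Many WRKY genes are themselves transcribed rapidly after a stimulus, and several proteins are phosphorylated by mitogen-activated protein kinases or bound by VQ motif proteins or calmodulin. The family is divided into group I, with a pair of WRKY domains, group II with subgroups IIa to IIe, and group III, which has a different zinc finger.

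The loci were chosen by annotation alone: every noncontrol probe with an Arabidopsis locus code whose array description mentions WRKY. This gave 74 of the 25665 loci with a code on the arrays, each on 1 probe. Of the 74, 71 carry a WRKY name in the RefSeq gene table (TAIR10.1). The 3 others are AT4G31805, AT5G45270 and AT5G46310, described at the end of the results on the family. The table names 72 WRKY genes in all. The other gene, RRS1 (WRKY52), a resistance protein with a WRKY domain, has an array description that does not mention WRKY, and its probe gave log2 ratios of 0.14, 0.08 and −0.26 (mean −0.01, limma adjusted p = 0.962).

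Transcripts were measured in whole Arabidopsis thaliana seedlings of the tdt-1 mutant and of wild type, both 3 days old and both raised on agar with MS medium at 22 °C without a dark period. Each of the 3 two-colour Agilent arrays compared tdt-1 RNA with wild-type RNA, and the arrays are numbered in the labels as replicates 1 to 3 and described as biological ones. Replicates 1 and 2 carried tdt-1 in Cy5. Replicate 3 carried it in Cy3, on another array layout, read with another software version and scanned on another day, and these differences cannot be told apart. The labels name neither the ecotype nor the gene affected in tdt-1 nor how many seedlings were pooled, and only 1 allele was compared. The reference table carries the name TDT at 2 loci, and neither ratio checks the genotype. DCP2, a subunit of the mRNA decapping enzyme with TDT as a synonym, stood at −0.62 ± 0.29 (SD, n = 3 arrays, limma adjusted p = 0.0629). The tonoplast dicarboxylate transporter TDT stood at −0.19 ± 0.47 (adjusted p = 0.545).

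Every ratio is a log2 difference, tdt-1 minus wild type, read on a single array, and means are given ± SD over the 3 arrays. A level is a genotype's background-corrected, normalised log2 intensity on 1 array, and is set only against the other genotype's level for the same probe. A locus was tested where the signal of at least 1 genotype was well above background on all 3 arrays, which held for 58 of the 74 WRKY loci and 20484 loci in all. The array software set this flag with a multiplier of 2.6 on replicates 1 and 2 and of 13 on replicate 3, so the criterion differed between arrays. Passing the test means a limma p of under 0.05 after Benjamini-Hochberg adjustment over all 20484 loci, and "higher" and "lower" as calls refer to tdt-1. Spots well above background made up 65.2% to 69.4% of an array for tdt-1 and 69.4% to 79.7% for wild type. No WRKY spot was saturated. In whole seedlings, fewer cells of a type and less RNA per cell cannot be told apart.

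WRKY18, a stress-induced factor of subgroup IIa, was the WRKY transcript farthest from wild type, at 2.71-fold higher in tdt-1. Alongside it rose WRKY25, WRKY45, WRKY24 and WRKY23, each between 1.5-fold and 1.66-fold. WRKY24 entered the test through tdt-1 alone, so its fold is uncertain. With both genotypes required well above background on all arrays, 4 WRKY loci were higher, 2 of them in subgroup IIc. WRKY65, WRKY29, WRKY16 and AT5G45270 fell, between 1.41-fold and 1.92-fold. The 3 named loci that fell all belong to subgroup IIe, and 3 of the 5 that rose belong to subgroup IIc. The other 49 tested loci did not pass the test.

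These 9 loci are 15.5% of the 58 tested WRKY loci, against 13.3% of all tested loci. By direction, the 5 higher loci are 8.62%, against 7.36% of all tested loci, and the 4 lower ones 6.9%, against 5.97%. The shares are close to those of the whole array, so the number of calls is not a result about the family. At an unadjusted p under 0.05 there were 25 WRKY loci (43.1%), against 35.1% of all loci. With the ratios reported here, large ones were few in the family. WRKY18 alone was at least 2-fold from wild type among the 58, or 1.72%, against 5.83% of all tested loci. It also passed the test, which 4.13% of all tested loci did at that size. This count depended on the source of the ratios. In the authors' deposited table, which holds the scanner software's ratios, 8 of the 58 WRKY loci were at least 2-fold (WRKY18, WRKY24, WRKY40, WRKY8, WRKY56, WRKY65, WRKY54 and WRKY12), against 12% of all tested loci.

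**Figure D1:**
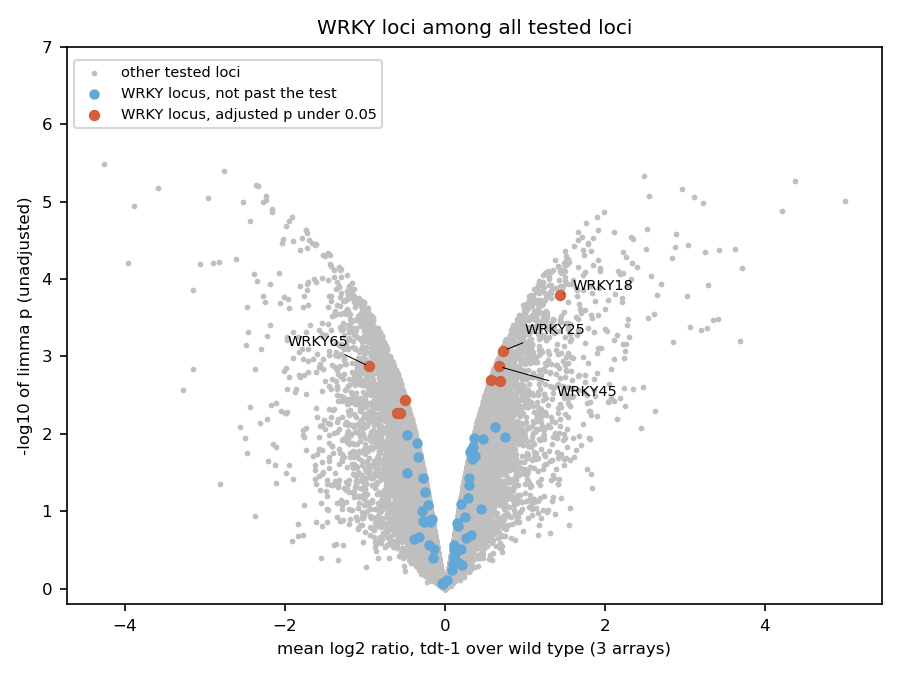
Each tested locus is plotted by its mean log2 ratio of tdt-1 over wild type over 3 arrays (horizontal axis) and by −log10 of its unadjusted limma p (vertical axis), with the 58 WRKY loci in colour. The WRKY means run from −0.94 (WRKY65) to 1.44 (WRKY18), well inside the range of all tested loci, which is −4.27 to 5.0.

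Subgroup IIa holds WRKY18, WRKY40 and WRKY60, which bind each other and are known as regulators of basal defence and of abscisic acid responses. WRKY18 had log2 ratios of 1.60, 1.5 and 1.22 on replicates 1, 2 and 3 (1.44 ± 0.19, limma adjusted p = 0.0160). Its level was 11.75, 11.49 and 11.84 in tdt-1 against 10.15, 9.99 and 10.62 in wild type, so every tdt-1 level lay above every wild-type level. WRKY40 stood at 0.55 and 0.68 on replicates 1 and 2 and at −0.25 on replicate 3 (0.33 ± 0.50, adjusted p = 0.344). The wild-type signal of WRKY40 was well above background on only 1 of the 3 arrays. WRKY60 stood at −0.09, −0.10 and −0.61 (−0.27 ± 0.30, adjusted p = 0.264), below 0 on each array. The mean of WRKY40 was 1.21 (2.31-fold, adjusted p = 0.202) when the same test was run on the authors' deposited table, and that of WRKY60 was −0.33. Within this trio, 1 transcript rose, and the other two passed the test with neither source of ratios.

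Group I has 14 loci, of which 10 were tested, and 9 of these had a mean above 0. WRKY25 was the only one past the test. Together with WRKY26 and WRKY33 it is known for a role in heat tolerance. Its ratios were 0.77, 0.77 and 0.66 (0.73 ± 0.06, 1.66-fold, adjusted p = 0.0231), with levels of 9.61, 9.52 and 9.36 in tdt-1 and 8.84, 8.75 and 8.70 in wild type. The genotypes did not overlap for WRKY25, and the arrays differed little. WRKY33, which is required for resistance to necrotrophic fungi and for camalexin synthesis, stood at 0.53, 0.45 and −0.44 (0.18 ± 0.54, adjusted p = 0.605). WRKY26 was near 0 on every array, at 0.11, 0.02 and −0.05 (adjusted p = 0.852). The 3 heat-related members thus gave 1 call, 1 locus with opposite signs in the dye orientations and 1 locus near 0.

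The other tested group I loci did not pass the test. WRKY1 (ZAP1), the founding Arabidopsis member, stood at 0.44, 0.34 and 0.28 (0.35 ± 0.08, adjusted p = 0.0734). WRKY44, known as TTG2 and required for trichome outgrowth and seed coat pigment, had a mean of 0.31 ± 0.15 (adjusted p = 0.120). WRKY2, which acts in the abscisic acid arrest of germinating seedlings, had a mean of 0.31 ± 0.18 (adjusted p = 0.135). WRKY3, WRKY4 and WRKY32 had means between 0.11 and 0.16. WRKY20 was the single tested group I locus with a mean below 0, at −0.19 ± 0.15. The group I median was 0.17, against 0.02 over all tested loci.

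Subgroup IIc is the largest, with 18 loci, 15 of them tested. WRKY45, WRKY23 and WRKY24 rose, against 7.36% higher over all tested loci, and none fell. This count includes WRKY24, which entered the test only through tdt-1, where it is high. With both genotypes required well above background on all arrays, 10 IIc loci were tested and 2 rose. At that setting 1427 of 18722 loci rose. Nothing is read from these counts about the subgroup. WRKY45, which activates phosphate uptake genes, had ratios of 0.71, 0.73 and 0.58 (0.67 ± 0.08, 1.59-fold, adjusted p = 0.0269). Its levels were 9.01, 9.07 and 8.30 in tdt-1 and 8.29, 8.34 and 7.72 in wild type. On each array tdt-1 was the higher, although the tdt-1 level on replicate 3 lay below the highest wild-type level. WRKY23, an auxin-responsive factor of root development, had ratios of 0.61, 0.62 and 0.52 (0.58 ± 0.05, 1.5-fold, adjusted p = 0.0309), with levels of 9.16, 8.98 and 8.56 in tdt-1 and 8.55, 8.36 and 8.04 in wild type. The genotypes were apart on every array. WRKY24 had ratios of 0.53, 0.83 and 0.72 (0.69 ± 0.15, 1.62-fold, adjusted p = 0.0310). WRKY24 was dim: its levels were 6.82, 6.80 and 7.28 in tdt-1 and 6.29, 5.97 and 6.56 in wild type, and the wild-type signal was well above background on 2 of 3 arrays. It entered the test through tdt-1 alone, so its fold is uncertain, and its mean ran from 0.46 with median centring to 1.38 (adjusted p = 0.0676) on the authors' deposited table.

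Several further IIc loci lay above 0 on all arrays without passing the test. WRKY56 stood at 0.49, 0.57 and 1.19 (0.75 ± 0.38, adjusted p = 0.0635). WRKY8 had a mean of 0.36 ± 0.05 (adjusted p = 0.0643), with a wild-type signal well above background on 1 array only. WRKY48, a repressor of basal defence, had a mean of 0.38 ± 0.16 (adjusted p = 0.0840). WRKY75, which acts in phosphate starvation and leaf senescence, was split: 0.83 and 0.61 on replicates 1 and 2 and −0.09 on replicate 3 (adjusted p = 0.210). In the other direction, WRKY12, a repressor of secondary wall formation in pith, stood at −0.23, −0.34 and −0.44 (1.26-fold lower, limma adjusted p = 0.0847). WRKY12 was not well above background in tdt-1 on any array, so its fold is uncertain. WRKY59, dim in tdt-1 in the same way, differed in sign between arrays, at −0.002, 0.11 and −0.56 (adjusted p = 0.548), and is given no fold. The other IIc means were small: 0.26 for WRKY51, 0.21 for WRKY43, 0.16 for WRKY28, 0.10 for WRKY71 and WRKY49, and −0.02 for WRKY57. Among these, WRKY43, WRKY71, WRKY49 and WRKY57 differed in sign between arrays. In all, 12 of the 15 IIc means were above 0 and the median was 0.26. With median centring in place of loess, a scaling that moves the median of all tested loci from 0.02 to 0.10, 10 were above 0, and the IIc median minus that of all tested loci was −0.03. WRKY28, WRKY71, WRKY49 and WRKY57 changed sign under that scaling.

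Subgroup IIe lay mostly below wild type, with 7 of 8 means below 0. Of its loci 3 passed the test, all lower, against 5.97% lower over all tested loci. Without background correction, or with scaling between arrays, 1 IIe locus passed, and with median centring none did. All 8 of its loci were tested. WRKY65 had ratios of −0.73, −0.90 and −1.20 (−0.94 ± 0.24, 1.92-fold lower, adjusted p = 0.0269). Its levels were 9.23, 9.29 and 9.35 in tdt-1 and 9.96, 10.20 and 10.55 in wild type, so the genotypes did not overlap. WRKY29, which acts with WRKY22 downstream of the flagellin receptor's kinase cascade, had ratios of −0.49, −0.49 and −0.83 (−0.60 ± 0.20, 1.52-fold lower, adjusted p = 0.0456). The levels of WRKY29 were 9.21, 9.24 and 9.03 in tdt-1 and 9.70, 9.72 and 9.86 in wild type, again without overlap. WRKY16, also called TTR1, encodes a resistance protein fused to a WRKY domain and is named for tolerance to tobacco ringspot virus. It had ratios of −0.44, −0.53 and −0.53 (−0.50 ± 0.05, 1.41-fold lower, adjusted p = 0.0385).

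The other IIe loci did not pass the test. WRKY27, which affects symptoms of bacterial wilt, stood at −0.33, −0.66 and −0.41 (−0.47 ± 0.17, adjusted p = 0.0617). WRKY22, the partner of WRKY29, stood at −0.35, −0.23 and −0.82 (−0.47 ± 0.31, adjusted p = 0.110). WRKY69 had a narrow spread, at −0.35 ± 0.05 (adjusted p = 0.0689), and WRKY35 stood at −0.17 ± 0.06 (adjusted p = 0.252). WRKY14 was the exception in sign, at 0.34, 0.14 and −0.10. The IIe median was −0.47, with array medians of −0.34, −0.44 and −0.47, and 7 of 8 means were below 0 under each of the 16 processing alternatives. For alternatives that leave out, average or reweight arrays this follows from 7 loci below 0 on each array, so it bears only on those that change the ratios. The share of loci lower on all 3 arrays was 27.5% over all tested loci, and 7 of the 8 IIe loci were among them. The subgroup was picked out after its values were seen, so these counts are a description.

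**Figure D2:**
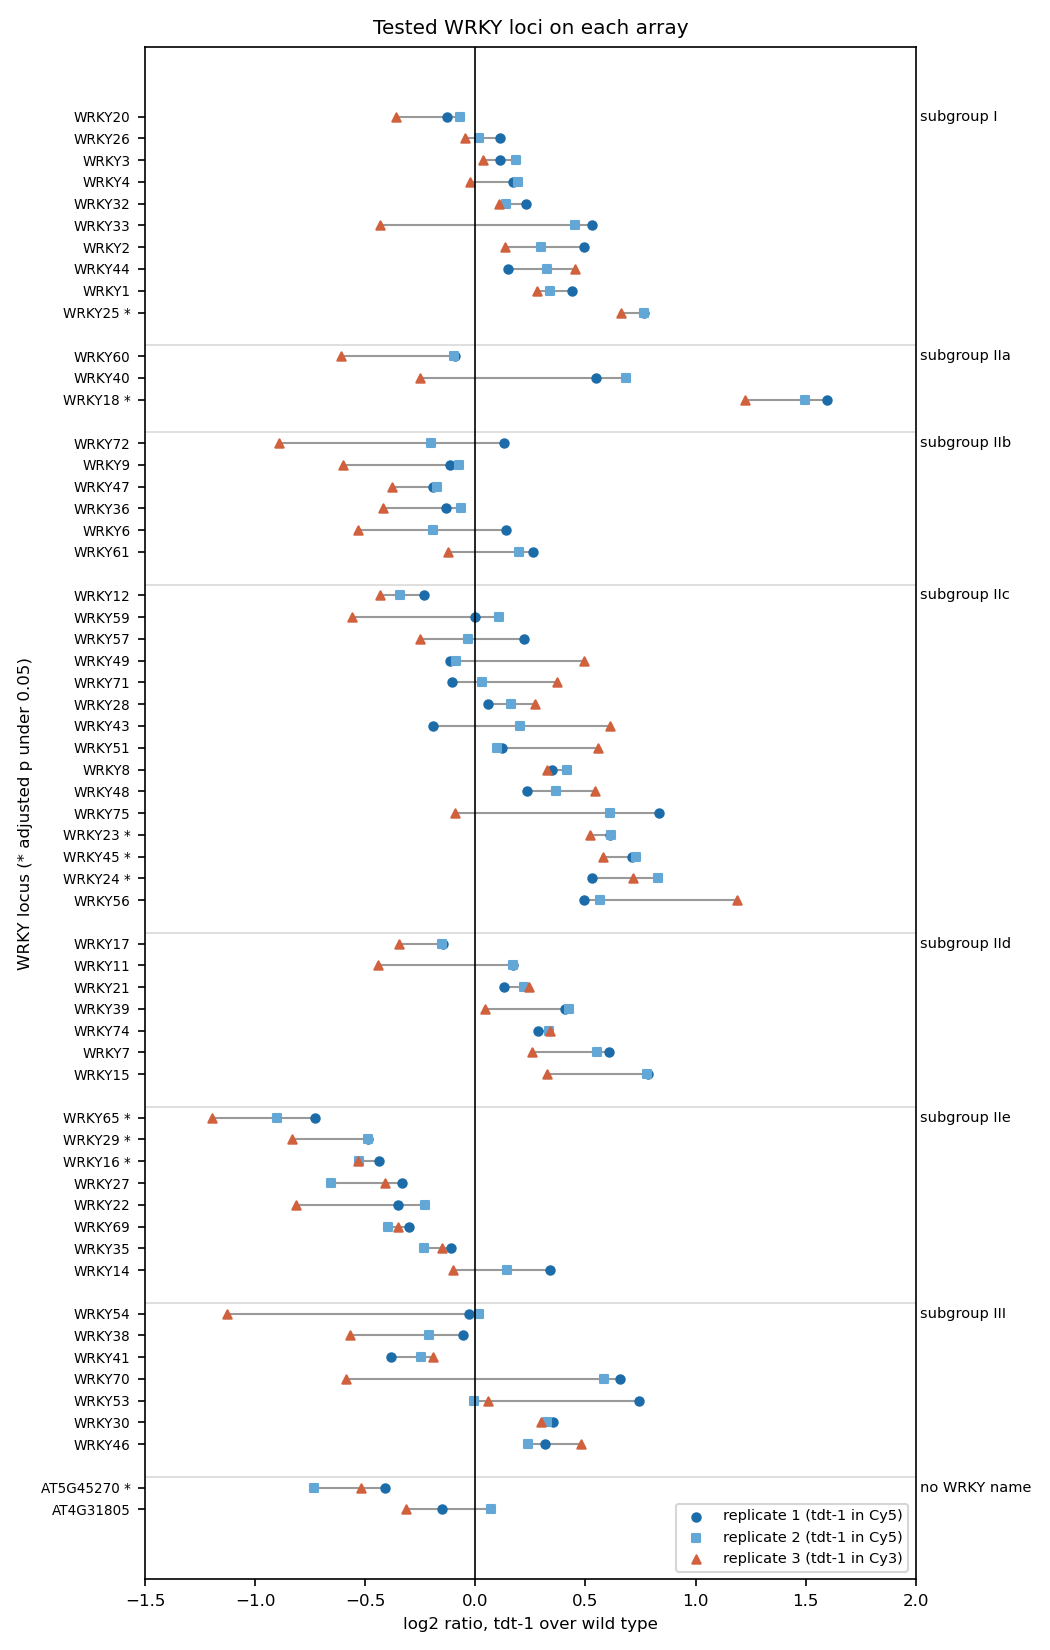
Ratios (log2, tdt-1 over wild type) on each of the 3 arrays for the tested WRKY loci, arranged by subgroup. Points of IIe lie below 0 on all arrays except for WRKY14, while WRKY18 of IIa stands alone at 1.22 to 1.60.

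Subgroup IIb had 6 of 8 loci tested, and none passed the test. Of the 6 means, 5 were below 0. WRKY47 had the smallest p, with ratios of −0.19, −0.17 and −0.38 (adjusted p = 0.152). WRKY36, which represses the light signalling gene HY5, and WRKY9 were below 0 on all 3 arrays, with means of −0.21 and −0.26. WRKY6, a regulator of senescence and of phosphate export to the shoot, stood at 0.14, −0.19 and −0.53. WRKY72 had the widest range of the subgroup, at 0.13, −0.20 and −0.89 (adjusted p = 0.361). The IIb median was −0.23, with array medians of 0.006, −0.12 and −0.48, so it was lowest on replicate 3. WRKY61 was the exception in sign, at 0.11 ± 0.21.

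Subgroup IId, whose members bind calmodulin, was tested in full, and none of its 7 loci passed the test. WRKY15, a factor of growth under osmotic stress, came nearest with 0.78, 0.78 and 0.32 (0.63 ± 0.26, adjusted p = 0.0546). WRKY7 stood at 0.61, 0.55 and 0.26 (0.47 ± 0.19, adjusted p = 0.0654), and WRKY74 at 0.29, 0.34 and 0.34 (adjusted p = 0.0786). WRKY39 and WRKY21 had means of 0.29 and 0.20 and were above 0 on all arrays. WRKY17 lay below 0 on all arrays, at −0.22 ± 0.12. WRKY11, which acts with WRKY17 in limiting basal defence, was split by array, at 0.17, 0.17 and −0.44. The IId median was 0.29.

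Group III, with many salicylic acid-responsive members, had 7 of 13 loci tested, and none passed the test. WRKY30 had the smallest p, with ratios of 0.35, 0.33 and 0.30 (0.32 ± 0.03, adjusted p = 0.0764). WRKY46 stood at 0.32, 0.24 and 0.48 (0.35 ± 0.12, adjusted p = 0.0875). WRKY41, which acts in seed dormancy, and WRKY38, a repressor of basal defence, were below 0 on all arrays, with means of −0.28 ± 0.10 and −0.28 ± 0.26. The salicylic acid regulators WRKY70, WRKY54 and WRKY53 were the least even across arrays. WRKY70 stood at 0.66, 0.59 and −0.59, with an SD of 0.70, the widest of the tested WRKY loci. WRKY54 stood at −0.03, 0.02 and −1.13, and WRKY53 at 0.74, −0.01 and 0.06. For these 3 loci a single array or dye orientation set the mean.

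**Figure D3:**
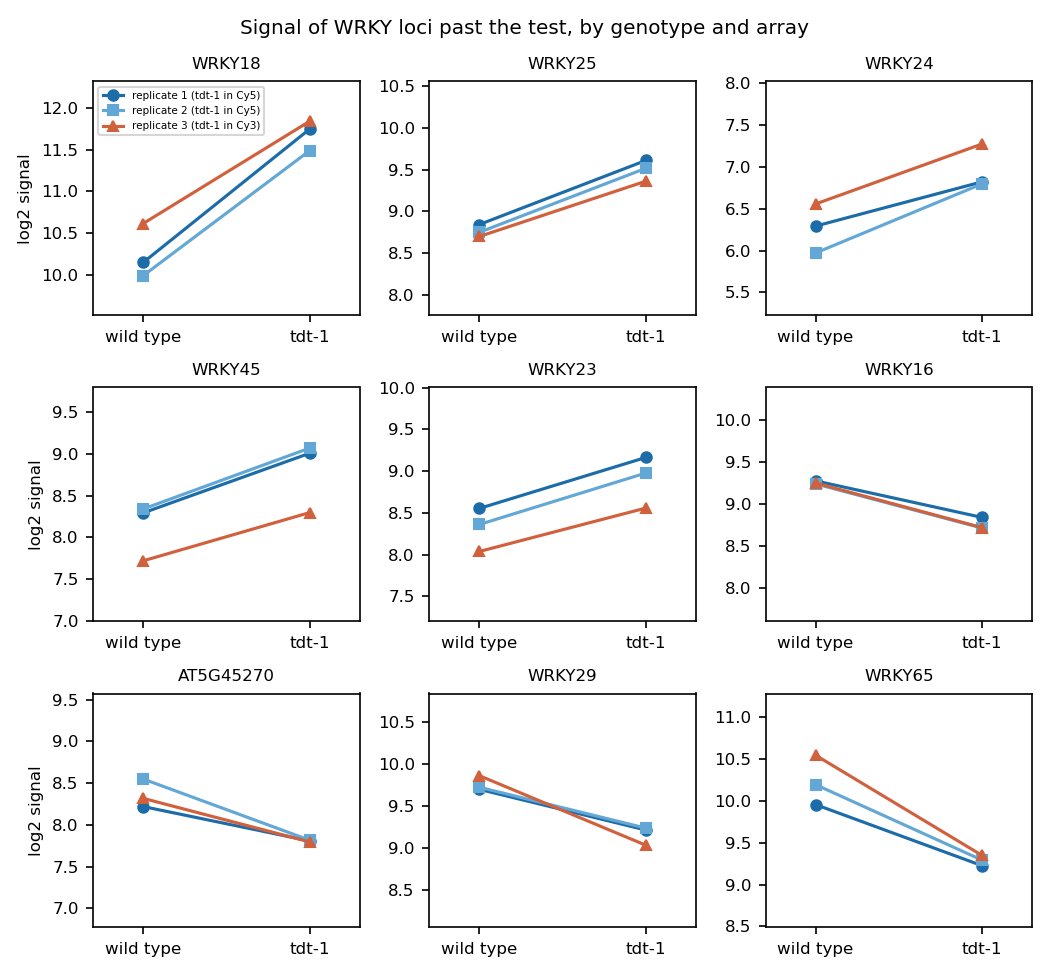
Normalised log2 intensity of tdt-1 and wild type on each array, joined by a line per array, for the 9 WRKY loci past the test. The axes share a span but not a position, and WRKY18 is at 9.99 to 10.62 in wild type and at 11.49 to 11.84 in tdt-1, while the lines of WRKY65 all slope the other way.

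Among the 3 loci without a WRKY name in the reference table, AT5G45270 fell. Its array description names a WRKY domain, and the locus is not in the table. Its ratios were −0.41, −0.73 and −0.52 (−0.55 ± 0.16, 1.47-fold lower, adjusted p = 0.0455). The code AT5G45270 is close to that of RRS1, AT5G45260, whose own probe had a mean of −0.01 (limma adjusted p = 0.962). AT4G31805 lies next to WRKY18 and is described on the array as WRKY18, but the table gives it no WRKY name. The locus is known as POLAR, a protein of asymmetric divisions in the stomatal lineage. Its ratios were −0.15, 0.07 and −0.31 (adjusted p = 0.458), unlike those of its neighbour WRKY18. AT5G46310, described on the array as WRKY8 and 4 protein-coding genes from that locus, was not tested.

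The 16 untested WRKY loci were each well above background on at most 2 arrays in either genotype. They include 6 of group III, 4 of group I, 3 of IIc and 2 of IIb. Among them are WRKY34, known from pollen, WRKY10 (MINI3), known from endosperm, and WRKY62, known from salicylic acid responses. Their mean ratios lay between −0.22 (WRKY19) and 0.26 (WRKY63, also called ABO3), with most signals near background. With no filter on dim probes, none of the 16 had an unadjusted limma p under 0.05, and the smallest adjusted p among them was 0.170 (WRKY63). Of the 58 tested loci, 7 were well above background on all arrays in 1 genotype only: WRKY24, WRKY8 and WRKY40 in tdt-1, and WRKY12, WRKY54, WRKY59 and WRKY71 in wild type. Adjacent gene pairs on the chromosomes included WRKY67 with WRKY64 and WRKY55 with WRKY54, of which only WRKY54 was tested.

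The WRKY ratios of replicates 1 and 2 lay close together, and those of replicate 3 lay farther away. The median absolute difference between replicates 1 and 2 was 0.09 over the WRKY loci and 0.10 over all tested loci. Between replicate 3 and the mean of the other two it was 0.29 and 0.32. Across the 58 loci, Pearson's r was 0.913 between replicates 1 and 2, 0.615 between 1 and 3 and 0.704 between 2 and 3, as a description, since the loci are not independent and share their arrays. Over all tested loci the same values were 0.940, 0.527 and 0.573. The median WRKY ratio was 0.13, 0.14 and −0.10 on replicates 1, 2 and 3, so it lay above 0 in 1 dye orientation and below it in the other. The medians of all tested loci had the same signs, at 0.04, 0.03 and −0.007. Over the means, the median WRKY ratio was 0.11, against 0.02 over all tested loci.

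By sign, 22 WRKY loci (37.9%) were higher on all 3 arrays, against 31.4% of all tested loci, and 17 (29.3%) were lower on all 3, against 27.5%. Together these 39 loci are 67.2% of the family, against 58.9% of all tested loci. Replicate 3 had the sign opposite to both others in 10 WRKY loci, or 17.2%, against 29% of all tested loci. Of these, WRKY4, WRKY11, WRKY14, WRKY26, WRKY33, WRKY40, WRKY61, WRKY70 and WRKY75 were above 0 with tdt-1 in Cy5 and below 0 with tdt-1 in Cy3. WRKY49 was the other way round. The kinase MPK3, which phosphorylates WRKY33, stood at 0.49, 0.42 and −0.69. Whether dye, layout or the seedlings of replicate 3 set these signs was not tested.

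**Figure D4:**
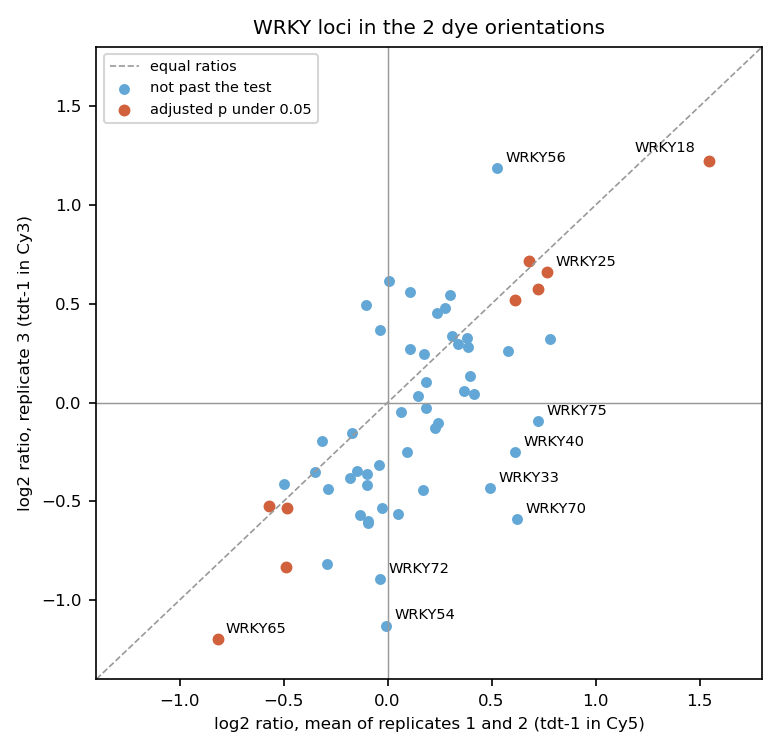
Mean log2 ratio of replicates 1 and 2 (tdt-1 in Cy5, horizontal axis) against that of replicate 3 (tdt-1 in Cy3, vertical axis) for the 58 tested WRKY loci, with the line of equal ratios. WRKY33, WRKY40, WRKY70 and WRKY75 fall in the lower right quadrant, while the 9 loci past the test have 1 sign in both orientations.

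Genes known to act with WRKY factors, or reported as their targets, were counted in 5 lists of 46 loci in all. Of 40 tested, 4 rose, 1 fell and 35 did not pass the test, with a median of 0.06. The calls are close in share to the 13.3% over all tested loci, so their number is not a result about these lists. None of the 9 loci of the kinase cascades that act on WRKY factors passed the test (limma), although all were tested, and their median was 0.02. At the RNA level the smallest p among them was that of MPK11, at −0.52, −0.38 and 0.00 (−0.30 ± 0.27, adjusted p = 0.202, unadjusted p = 0.0886), so none had an unadjusted p under 0.05.

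Of 10 VQ proteins that bind WRKY factors, 7 were tested. Of these 1 rose, against 7.36% higher over all tested loci: JAV1, a repressor of jasmonate responses. Its ratios were 0.82, 0.71 and 0.74 (0.76 ± 0.06, 1.69-fold, adjusted p = 0.0221). MKS1, which links WRKY25 and WRKY33 to the kinase MPK4, stood at 0.003 ± 0.10. SIB1 and SIB2, which bind WRKY33, stood at 0.007 ± 0.14 and 0.16 ± 0.53.

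Of 15 defence genes reported as WRKY-regulated, 13 were tested and none passed the test (limma). Their median was 0.11, and 2 had an unadjusted p under 0.05, against 35.1% of all tested loci. YLS9, also called NHL10 and induced by flagellin, came nearest at 0.35, 0.75 and 0.98 (0.69 ± 0.32, adjusted p = 0.0567). PAD3, the last enzyme of camalexin synthesis and a target of WRKY33, stood at −0.24, −0.36 and −1.79 (adjusted p = 0.195). FRK1, a marker downstream of WRKY22 and WRKY29, stood at 0.48, 0.46 and −0.12 (adjusted p = 0.287). PR1, the usual marker of salicylic acid signalling, and CYP71A13 were not tested.

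Of 5 abscisic acid genes reported as bound by subgroup IIa factors, 3 rose, and none fell, against 7.36% higher over all tested loci. The genes were listed with their values in these data already known, so nothing is read from this count. DREB2A, a drought and heat transcription factor, had ratios of 1.98, 1.99 and 1.79 (adjusted p = 0.0144). RAB18, a dehydrin, had ratios of 3.15, 2.65 and 2.04 (adjusted p = 0.0183). ABI5, which arrests seedling growth under abscisic acid, had ratios of 0.92, 0.59 and 0.55 (adjusted p = 0.0374). ABF4 stood at 0.41 ± 0.13 (adjusted p = 0.0673), and ABI4 was carried by replicate 3, at 0.08, −0.31 and 2.39. WRKY18, WRKY40 and WRKY60 are reported as repressors or activators of such genes, and their own ratios are those given above.

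Of 7 trichome and seed coat genes acting with TTG2, 6 were tested. Of these 1 fell, against 5.97% lower over all tested loci: TRY, an inhibitor of trichome fate. Its ratios were −0.78, −0.82 and −0.62 (−0.74 ± 0.10, 1.67-fold lower, adjusted p = 0.0244). EGL3 stood at −0.41 ± 0.08 (adjusted p = 0.0572) and GL2 at −0.35 ± 0.16 (adjusted p = 0.10). GL1 was uneven, at −0.38, −0.67 and −2.35. The remaining tested loci had means above 0: TTG1 at 0.55, 0.45 and −0.12, and CPC at −0.26, −0.36 and 1.08. TTG2 itself (WRKY44) had a mean of 0.31, above 0 on all arrays, while the list's median was −0.38.

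Markers of the organs in a whole seedling, and of seed and pollen, were read beside these values. Of 4 shoot genes 1 fell (LHCB1.3, −0.75 ± 0.30, limma adjusted p = 0.0476), against 5.97% lower over all tested loci. The shoot median was −0.26, −0.36 and −1.45 on replicates 1, 2 and 3, with RBCS1A and LHCA1 saturated on all arrays. None of 8 root genes passed the test (limma), 1 had an unadjusted p under 0.05, and their median was −0.23. Of 6 seed genes, 5 were tested and 2 rose (EM1 1.45 ± 0.13 and M17 1.51 ± 0.35), against 7.36% higher over all tested loci. The seed median was 1.45, and 1.21, 0.41 and 1.57 on replicates 1, 2 and 3. CRA1 (1.21, −0.02 and 3.50), CRU3 (0.38, 0.41 and 3.34) and EM6 (2.29, 0.26 and −0.50) were uneven and did not pass the test. Neither of 2 pollen genes was tested. The part of these differences in the WRKY ratios was not tested.

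The number of WRKY calls differed between processing alternatives. The 9 loci kept their sign in each alternative that tested them, which for alternatives that leave out, average or reweight arrays follows from ratios of 1 sign on all 3. WRKY18, WRKY25, WRKY45, WRKY23 and WRKY65 passed the test in 11 of 16 alternatives. WRKY16 and WRKY29 did so in 9, AT5G45270 in 7 of 16 and WRKY24 in 8 of 15. These counts do not measure robustness, since several alternatives could change little. No WRKY spot was saturated, each WRKY locus had 1 probe, and the filters left the ratios of tested loci as they were. The deposited table holds the scanner software's ratios. The dye term, array weights and the fit without replicate 3 called 64.4%, 72.6% and 60.9% of all tested loci. No WRKY locus passed without replicate 1 or without replicate 2, with the other two arrays kept, and without replicate 3 there were 25 higher and 10 lower. Without replicate 1, the mean of WRKY18 was 1.36. At an unadjusted limma p under 0.05 there were then 12 of 58 WRKY loci, against 3956 of all 20484 tested loci. Without replicate 2 there were 9 WRKY loci, against 3637 of all tested loci. Nothing is read from these counts about the family.

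**Figure D5:**
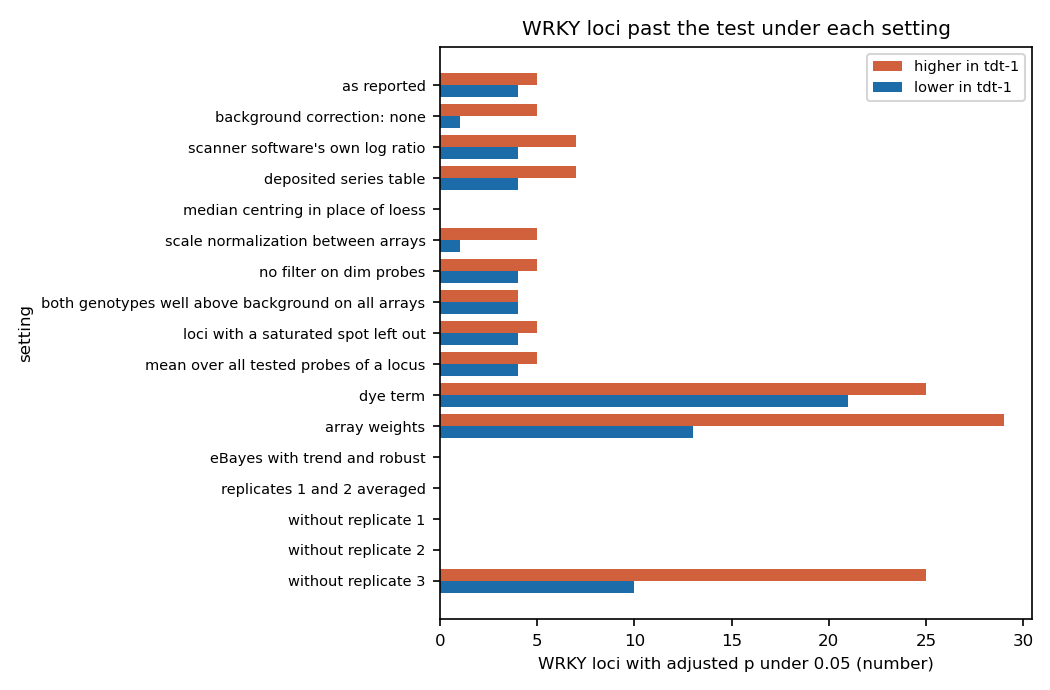
Number of WRKY loci past the test in tdt-1, higher and lower, as reported and under each of 16 processing alternatives. The reported counts are 5 and 4, and they run from 0 and 0, for example with median centring, to 29 and 13 with array weights.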

How the data were processed

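The authors deposited linear spot intensities, given as mean pixel values with median local backgrounds for both channels. Agilent Feature Extraction produced them, per the file headers: replicate 3 was read with version 9.1.3.1, the others with 8.5.1.1. The same files give the software's log10 ratio of Cy5 over Cy3, computed after its own background and dye correction, per the file headers. A table of the whole series, also deposited, gives log2 ratios with tdt-1 over wild type. Further steps by the authors are not given in the sources used here.

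Intensities were corrected with normexp (offset 50) and normalised by loess within each array with limma 3.58.1 in R 4.3.3, control spots having weight 0. The sign was turned on replicate 3, and outlier spots (16, 11 and 81 on replicates 1, 2 and 3) were left out. The brightest probe stood for a locus. Levels are the normalised mean log intensity of both channels, moved up or down to each channel by the ratio. Ratios were tested against 0 with lmFit and eBayes over the 3 arrays, Benjamini-Hochberg adjusted over 20484 loci, and the steps were tested on simulated data. Each array pairs the genotypes. The series' design text calls the arrays biological replicates, and p-values measure the spread between these arrays, and their number limits the precision. Names come from the reference table (TAIR10.1), in which 1 of the 74 loci was not found. The 3 replicates were not batch-free: layout, software version, scan day and dye set replicate 3 apart. Values per array are given for part of the loci, and other loci are given as means only.

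Values by array are given for WRKY loci past the test, those at least 2-fold from wild type and subgroup IIa. In other subgroups and lists, the members past the test or with the smallest p are given, with further members by counts, ranges or means. The members, lists and tests were chosen with earlier results of these data known. The 16 alternatives concerned background correction, the source of the ratios (the scanner software's log10 ratios or the deposited log2 table in place of the corrected intensities), normalisation, filters, probe choice, a dye term, array weights, the variance model, averaging replicates 1 and 2, and leaving out each array.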

Additional observations from a re-analysis of the deposited data

How the results depend on the processing

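As reported, 5 WRKY loci were higher and 4 lower, and 4 partner or target loci were higher and 1 lower; over all tested loci there were 1508 and 1222. Median centring gave 0 and 0 WRKY loci, 0 and 0 partners, and 1 and 0 over all loci. At an unadjusted limma p under 0.05 it gave 10 WRKY loci, against 3635 of all 20484 tested loci. An intensity trend with robust variances gave 0 and 0 in all 3 sets, with a smallest adjusted limma p of 0.0638. At an unadjusted p under 0.05 it gave 25 WRKY loci, against 7318 of all tested loci. Replicates 1 and 2 averaged gave 0 and 0 WRKY loci, 0 and 0 partners, and 24 and 19 over all loci. At an unadjusted limma p under 0.05 this gave 10 WRKY loci, against 3731 of all tested loci. A dye term gave 25 and 21 WRKY loci, 15 and 11 partners, and 6941 and 6260 over all loci. Array weights gave 29 and 13, 16 and 9, and 8170 and 6710, with weights of 1.27, 7.40 and 0.106 for replicates 1, 2 and 3. The scanner software's ratios and the deposited table each gave 7 and 4 WRKY loci and 4 and 1 partners. No background correction and scaling between arrays each gave 1 lower WRKY locus. Leaving out 1 array gave 0 to 25 higher and 0 to 10 lower WRKY loci, 2 to 16 and 0 to 7 partners, and 66 to 7002 and 45 to 5463 over all loci; the largest counts are without replicate 3. The dye term and the fit without replicate 3 estimate the spread from replicates 1 and 2 alone. The median WRKY ratio stayed between 0.03 and 0.15.

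Small means changed sign. Median centring gave −0.056 for WRKY28, −0.053 for WRKY61, −0.089 for WRKY71, −0.093 for WRKY49, 0.28 for WRKY11 and 0.032 for WRKY57. Array weights gave 0.036 for AT4G31805, 0.082 for WRKY59, −0.087 for WRKY49, 0.16 for WRKY11 and 0.0024 for WRKY57. Leaving out 1 array gave −0.0021 to 0.62 for WRKY70, −0.014 to 0.064 for WRKY26, −0.28 to 0.052 for WRKY59, −0.037 to 0.20 for WRKY71, −0.10 to 0.20 for WRKY49, −0.14 to 0.17 for WRKY11 and −0.14 to 0.095 for WRKY57. Under array weights and with 1 array left out, the changes follow from ratios of opposite sign between the arrays. The cause of those under median centring was not tested. No paired analysis was possible beyond the reported one because the test is itself on ratios of both genotypes within an array, so the replicate numbers give no further pairing. Signal over background limits what the 16 untested loci can show, and the 7 loci well above background in 1 genotype only carry uncertain ratios.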
